A study of Mus musculus with 64 samples.

Results

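The replication-dependent histone genes are the genes that supply core and linker histones to newly copied DNA. They were taken as every row of the count tables whose symbol starts with Hist1h, Hist2h, Hist3h or Hist4, which gave 68 genes of 23338. The samples were 64 RNA-seq libraries of C57BL/6 mice (C57BL/6 J in the study's methods), and the study set males against females at each of 4 stages. There were 6 eight-cell embryos of each sex, 2 ES cell lines of each sex kept in 2i, and 12 livers of each sex both from fetuses of late gestation and from adults. No group carried an engineered allele or received a treatment that the labels name. The ES cell lines were grown from eight-cell embryos in medium with 2 kinase inhibitors (2i) and LIF, so each line goes back to 1 embryo. Each embryo library held all cells of 1 embryo, and embryos of both sexes came from several litters. Embryos had been sexed by the expression of sex-chromosome genes, and ES lines and fetuses by PCR on their DNA. ES cells and livers were prepared with a stranded total RNA kit, whereas embryos went through an amplified single-cell protocol. Stage and protocol therefore cannot be told apart for the embryos. Nothing in the sources used here says which fetal livers came from the same litter or which libraries shared a sequencing lane.

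Nucleosomes wrap DNA around pairs of the core histones H2A, H2B, H3 and H4, and linker histone H1 sits where the DNA enters and leaves. Cells make most of these proteins during S phase from clustered genes that mostly lack introns. Their mRNAs usually end in a short stem-loop instead of a poly(A) tail, and the stem-loop binding protein SLBP guides their processing, translation and decay. Replacement histones such as H3.3 and H2A.Z come from ordinary polyadenylated mRNAs made throughout the cell cycle. Fetal liver is a tissue of dividing hepatoblasts and blood precursors, and adult hepatocytes divide rarely. The single-cell protocol that the embryo libraries follow primes cDNA with oligo-dT, which pairs with poly(A) tails.

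By the reference annotation (GRCm38, the build of the deposited counts), 54 members lie in the Hist1 cluster on chromosome 13 between 21715763 and 23934851, 10 in the Hist2 cluster on chromosome 3 between 96219865 and 96270132, and 3 in the Hist3 cluster on chromosome 11 between 58948920 and 58956830. The single Hist4 gene, Hist4h4, is on chromosome 6 at 136801553 to 136804415. The members comprise 6 H1, 18 H2A, 19 H2B, 12 H3 and 13 H4 genes, and 63 of the 68 have a single exon. A stem-loop of 6 paired bases around a loop of 4, between 21 and 58 bases after the stop codon, was present in the annotated transcripts of 45 members, in 8 different forms. Transcript models that stop at or soon after the coding sequence could not show one. The stem-loops of 7 members on which the results below turn are shown with 5 bases on each side, the stem and loop in capitals, as they stand in the GENCODE M21 transcripts.
Hist1h1c: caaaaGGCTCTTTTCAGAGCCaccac
Hist1h2ab: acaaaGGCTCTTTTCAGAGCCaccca
Hist1h3c: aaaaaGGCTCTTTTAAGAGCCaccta
Hist1h3f: aaaacGGCTCTTTTAAGAGCCacctc
Hist1h4d: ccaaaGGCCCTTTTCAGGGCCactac
Hist1h4i: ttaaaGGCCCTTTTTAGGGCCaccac
Hist4h4: acaaaGGCCCTTTTCAGGGCCcacaa
The form of Hist1h1c and Hist1h2ab was found in 25 members of the H1, H2A, H2B and H3 classes. That of Hist1h4d and Hist4h4 was found in 7 members, all of them H4 genes, and that of Hist1h3c and Hist1h3f in 6 members. Hist1h4i shared its form with 1 other H4 gene.

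The promoter windows of the members, 250 bases before to 50 after each start in RefSeq (GRCm38.p6), were searched on both strands for 3 short motifs. RefSeq gave 63 windows for 62 members. TATAAA stood in 55.56% of them against 13.62% of all 32851 windows, CCAAT in 85.71% against 37.41%, and the octamer ATGCAAAT in 22.22% against 1.74%. Classes differed: every window of the H1, H2A, H2B and H3 genes held CCAAT, compared with 25.00% of the H4 windows. The octamer occurred in 38.89% of H2A and 41.18% of H2B windows and in 0 windows of the other 3 classes. These matches describe the letters and are no evidence of binding.

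Reads on genes numbered 4659660 to 7725430 per embryo library, 9857930 to 10386931 per ES cell line, 5145370 to 8499600 per fetal liver and 1567580 to 4757610 per adult liver. Levels are given as counts per 1000000 reads on genes (CPM). The labelled tissues carried their defining markers: 9 hepatocyte genes summed to 50577 CPM in fetal and 72243 CPM in adult liver against 22.9 CPM in ES cells, and 9 pluripotency genes to 4203 CPM in ES cells and 3549 CPM in embryos. Many histone genes are near copies, and reads that aligned to several places had been left out of the counts. A median of 55.483% of the 50-base windows of a member recurred in another member, with class medians of 75.968% for H2A, 71.338% for H3, 51.163% for H4, 45.28% for H2B and 9.556% for H1. Levels of single members can thus be too low, most of all for H2A and H3. Hist1h2ao, Hist1h2ap, Hist1h2bq, Hist1h2br and Hist2h2aa2 had no read in any of the 64 libraries and Hist1h4m had 3 reads over all libraries; each is close to another member, so their levels are unknown here.

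Histone reads made up 1.18% of all reads on genes in fetal liver, 0.685% in ES cells, 0.0457% in adult liver and 0.000846% in embryos. The summed histone level was 10682 CPM in male fetal livers (SD 1351, n = 12) and 12903 CPM in female ones (SD 1831, n = 12). It was 7412 and 6812 CPM in the male ES cell lines and 6722 and 6474 CPM in the female lines. Adult livers held 453 CPM in males (SD 71.6, n = 12) and 461 CPM in females (SD 57.9, n = 12). Embryos held 6.05 CPM in males (SD 2.03, n = 6) and 10.9 CPM in females (SD 5.33, n = 6), which rests on 20 to 97 histone reads per library. The ranges of the stages did not touch: 2.59 to 18.02 CPM in embryos, 340 to 645 CPM in adult livers, 6474 to 7412 CPM in ES cells and 8123 to 15581 CPM in fetal livers. The mean was 25.8 times higher in fetal than in adult liver, 1.72 times higher in fetal liver than in ES cells, and 810 times higher in ES cells than in embryos. In tissue and in pools of cells, fewer dividing cells and less histone mRNA per cell cannot be told apart.

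**Figure D1:**
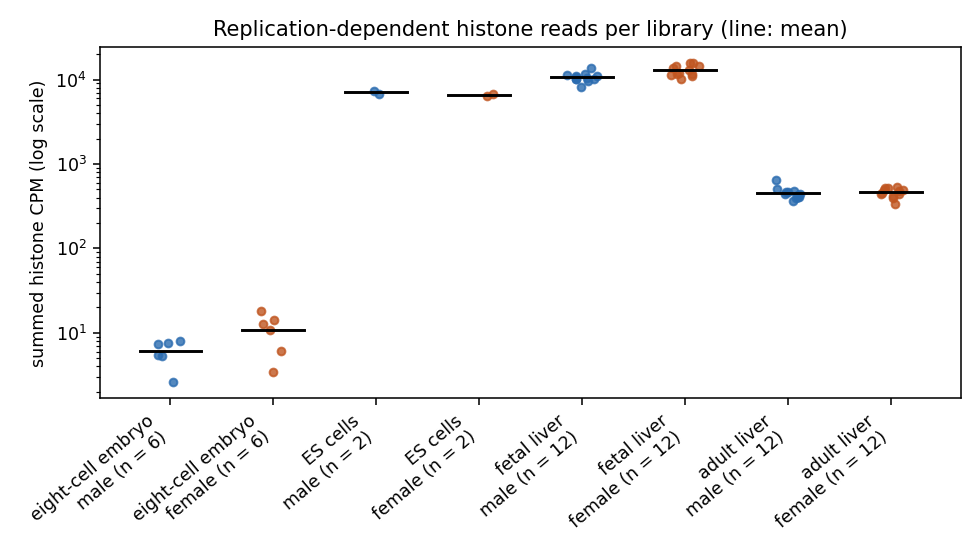
Summed level of the 68 replication-dependent histone genes (CPM, log axis) in each of 64 libraries, 1 point per library, males in blue and females in orange, with a line at each group's mean. Fetal livers and ES cells lie between 6474 and 15581 CPM, adult livers between 340 and 645 CPM and embryos between 2.59 and 18.02 CPM.

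Between the livers, which share tissue and kit, nearly every histone gene was lower in the adult. Of 57 members tested with edgeR across all genes, 56 fell in adult liver (adjusted p under 0.1 and an absolute log2 change above 0.5), against 35.3% of all genes tested. The median log2 (adult/fetal) of the members was -5.97, compared with -0.05 over all genes, and the members ranged from -8.65 to -0.48. Scaling by TMM put this contrast 0.57 log2 units above plain library totals, with which the median was -6.53 and 57 members fell.

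The genes of highest level in fetal liver, per kilobase of transcript, belonged to several classes. Hist2h2bb, an H2B gene, led at 1746 CPM per kb, followed by the linker histone gene Hist1h1c (1454), the H4 genes Hist1h4d (1358) and Hist1h4f (1058) and the linker gene Hist1h1d (936). Hist1h1c had 775 to 1385 CPM in fetal livers, median 1053, and 31.1 to 120 CPM in adult livers, median 60.9. The 2 stages did not overlap for Hist1h1c, whose log2 (adult/fetal) was -3.55 ± 0.10 (SE, adjusted p = 1.4e-36). Replicative linker genes without a long 3′ UTR in the annotation lost more. Hist1h1b went from 592 CPM to 1.41 CPM (log2 -8.16 ± 0.11, adjusted p = 3.0e-52), and Hist1h1a from 613 CPM to 2.59 CPM (log2 -7.30 ± 0.11, adjusted p = 8.0e-50). Hist1h1d and Hist1h1e fell by 5.09 ± 0.15 and 3.12 ± 0.09 on the log2 scale. Hist1h1e and its neighbour Hist1h2be overlap on the same strand in the annotation. Strand cannot separate reads from the overlap, so either count may be off. Hist1h1t, the testis linker histone, was low in fetal liver at 1.37 CPM and near the detection limit in adult liver at 0.05 CPM. It did not pass the filter on low counts, whereas DESeq2 and edgeR without that filter called it between the livers.

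The largest changes were in H2A and H2B genes. Hist1h2an had 19.1 to 72.2 CPM in fetal livers and at most 0.37 CPM in adult livers, where 3 of 24 libraries held a read (log2 -8.65 ± 0.31, adjusted p = 1.4e-31). Hist1h2bp had 25.2 to 70.7 CPM in fetal livers and a read in 3 adult libraries (log2 -8.31 ± 0.22, adjusted p = 2.6e-39). Among members outside the large cluster, Hist3h2ba fell by 8.10 ± 0.21, Hist4h4 by 4.54 ± 0.09, Hist3h2a by 4.28 ± 0.08 and Hist2h2be by 2.43 ± 0.10 on the log2 scale (edgeR, all adjusted p under 0.1).

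Hist1h2bc, an H2B gene described as giving a polyadenylated mRNA besides the stem-loop form, was the member that missed the fold threshold. Its level was 192 to 348 CPM in fetal livers, median 245, and 93.3 to 162 CPM in adult livers, median 118. The 2 ranges did not overlap, and the log2 (adult/fetal) was -0.48 ± 0.06 (edgeR, adjusted p = 6.5e-10), under 0.5 in size. With plain library totals, with DESeq2 or its size factors, and without the filter on low counts, Hist1h2bc passed that threshold too, as lower in the adult.

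**Figure D2:**
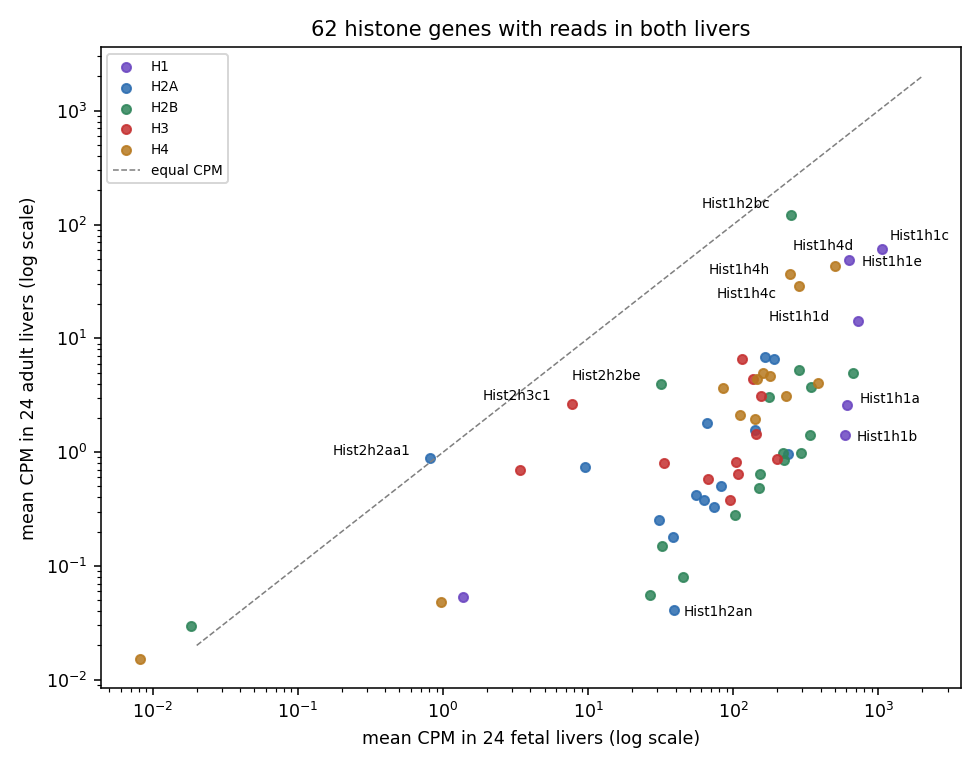
Mean CPM of 62 histone genes with reads in both livers, fetal (x) against adult (y), n = 24 libraries each, on log axes, coloured by histone class, with a dashed line at equal CPM. Hist1h2bc, at 250 CPM in fetal and 120 CPM in adult liver, is the abundant gene nearest the line, and Hist1h2an and Hist1h1b lie far below it.

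A few genes made up most of what was left in the adult. Hist1h2bc, Hist1h1c, Hist1h4d, Hist1h1e, Hist1h4h, Hist1h4c and Hist1h1d were the 7 members above 10 CPM on average in adult liver, and they were chosen here by that level. Together they held 77.1% of the histone CPM of an adult library (SD 2.26, n = 24), compared with 31.5% of a fetal one (SD 1.39, n = 24) and 26.4% in ES cells (SD 0.41, n = 4). Hist1h2bc alone held 26.7% in adult (SD 4.52) and 2.13% in fetal liver (SD 0.14). In fetal liver 54 members exceeded 10 CPM, and 38 exceeded 100 CPM against 1 in the adult. By class, and per kilobase, H4 genes held 47.1% of adult histone CPM (SD 3.54) and 28.5% of fetal (SD 1.17). H3 genes held 4.81% in the adult (SD 0.62) and 9.51% in the fetus (SD 1.45), and H2A genes 6.00% and 11.5%. In CPM not divided by length, the H4 share was 30.2% in the adult and 21.1% in the fetus. The direction for H2B turned with the scale, at 19.9% in the adult and 29.5% in the fetus per kilobase, but 32.6% and 28.3% in CPM.

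The members that stayed high in the adult tended to have longer annotated 3′ UTRs. The split at 200 bases was chosen after the values had been seen, and it carries no test. Over 200 bases were annotated for 24 members, of which 21 could be compared between livers, with a median log2 (adult/fetal) of -4.28, and 6 of the 24 exceeded 10 CPM in adult liver. Of the 44 members with 200 bases or fewer, 36 could be compared, with a median of -6.55, and 1 exceeded 10 CPM, Hist1h4h with a UTR of 93 bases. Across 56 members Spearman's rho between UTR length and log2 (adult/fetal) was 0.52 and Pearson's r 0.34. This describes the members only, which share clusters and sequence and are not replicates. The UTR of Hist1h1d was annotated at 4931 bases, that of Hist1h1e at 1209, Hist1h1c at 880, Hist1h4d at 822, Hist1h2bc at 742 and Hist1h4c at 503 bases.

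Genes of cell division fell along with the histone genes. Of 35 S phase genes 34 were lower in adult liver (median log2 -4.07), as were 20 of 20 genes of mitosis (median -6.69), again against 35.3% of all genes. Red cell genes fell in 8 of 8 tested (median -8.00), from a summed 7303 CPM to 153 CPM, and leukocyte genes in 7 of 7 (median -2.22). Their part in the histone difference was not tested. Replacement histones changed less, with 6 of 10 lower and a median of -1.07: H3f3a fell from 814 to 165 CPM (log2 -1.74 ± 0.05) and H3f3b from 403 to 190 CPM (log2 -0.52 ± 0.05). Of 21 factors of histone mRNA synthesis and processing, 16 fell. Slbp, the stem-loop binding protein, went from 202 to 19.4 CPM (log2 -2.81 ± 0.06), and Npat, the coactivator of histone genes, from 87.8 to 15.4 CPM (log2 -1.96 ± 0.06). Casp8ap2, a component of histone locus bodies, fell by 1.79 ± 0.05, Zfp473 and Lsm11, of the U7 processing machinery, by 3.87 ± 0.25 and 1.19 ± 0.08 on the log2 scale. The U7 protein gene Lsm10 was the 1 factor that rose, by 0.81 ± 0.08 (9.22 CPM in fetal and 10.9 CPM in adult liver), and with plain library totals its log2 change was 0.25.

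In fetal liver, 10 of 57 histone genes tested were called lower in males than in females, against 0.828% of all genes, and the 10 were H3 and H2A genes. With the share of reads outside genes as a covariate, which does not overlap between the sexes, 0 of the 57 were called and their median was -0.02. The log2 (male/female) was below 0 for all 57, with a median of -0.29 against -0.03 over all genes, and 47 of them had an adjusted p under 0.1 at any fold, against 19.5% of all genes in that direction. H3 genes were called in 7 of 12 (median -0.54) and H2A genes in 3 of 13 (median -0.41). H4, H1 and H2B genes had medians of -0.27, -0.25 and -0.23. None of these was called at this fold, although 10 of 11 H4, 3 of 5 H1 and 12 of 16 H2B genes had an adjusted p under 0.1. The summed levels of the sexes overlapped, with 7 male livers above the lowest female and 8 female livers below the highest male, and the female mean was 1.21 times the male mean.

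Hist2h3b differed most. It had 16.4 to 37.3 CPM in males, median 22.8, and 20.2 to 69.6 CPM in females, median 43.3 (log2 -0.78 ± 0.19, edgeR, adjusted p = 0.0036). Hist1h3h had 39.0 to 64.8 CPM in males, median 49.5, and 52.4 to 116 CPM in females, median 87.8 (log2 -0.72 ± 0.13, adjusted p = 0.00025). For both genes the ranges of the sexes overlapped. Hist1h3c ranged from 113 to 227 CPM in males, median 150, and from 140 to 378 CPM in females, median 262 (log2 -0.69 ± 0.16, adjusted p = 0.0018). Hist1h3f ranged from 69.2 to 150 CPM in males, median 103, and from 78.3 to 241 CPM in females, median 192 (log2 -0.68 ± 0.19, adjusted p = 0.0080). These 4 genes all encode H3, the histone whose tail carries many of the marks of active and silent chromatin.

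The remaining called members were Hist1h3a (-0.63 ± 0.14), Hist1h2ab (-0.57 ± 0.15), Hist1h3e (-0.55 ± 0.17), Hist1h2ac (-0.54 ± 0.15), Hist1h3g (-0.53 ± 0.14) and Hist1h2ad (-0.51 ± 0.12), all as log2 (male/female) with SE. Their male means lay between 25.5 CPM for Hist1h2ad and 123 CPM for Hist1h3a, and their female means between 36.0 and 188 CPM. Just inside and outside the fold threshold were Hist1h2ad at -0.51 and Hist1h2ag at -0.49. Smallest of all was the difference of the linker gene Hist1h1e, at 619 CPM in males and 647 CPM in females (log2 -0.07 ± 0.06). When each of the 24 livers was left out in turn, 7 of the 10 members were called in all 24 fits, Hist1h3e in 23, Hist1h3g in 22 and Hist1h2ad in 17.

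**Figure D3:**
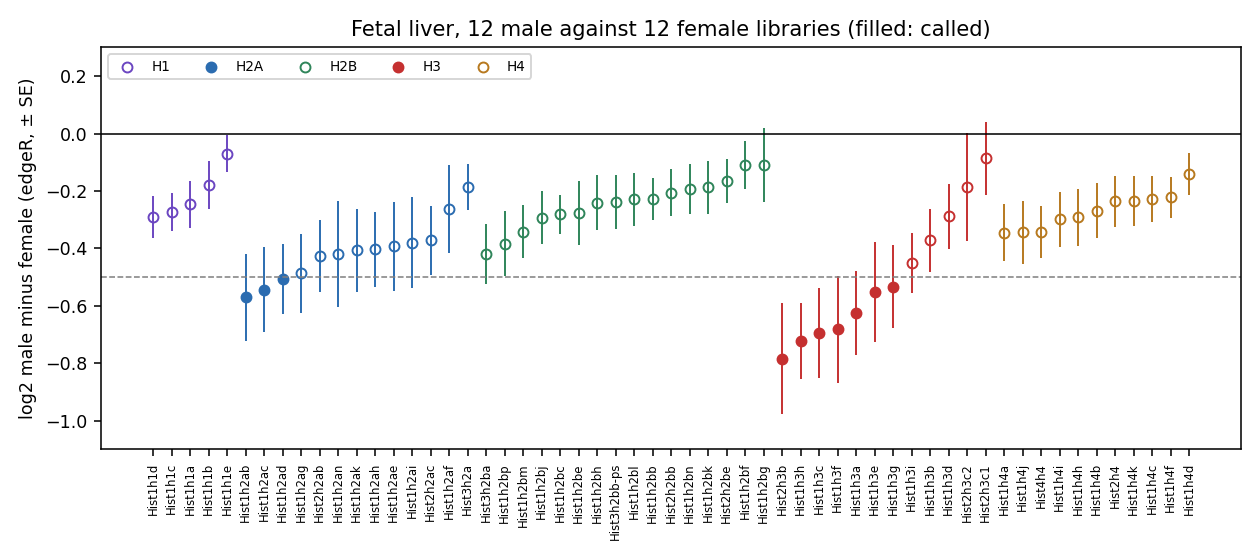
Log2 (male/female) in fetal liver for 57 histone genes (edgeR, bars ± SE, 12 libraries per sex), ordered within class, filled points marking the 10 genes called. All points lie below 0, and the filled ones belong to H2A and H3, from -0.78 for Hist2h3b to -0.51 for Hist1h2ad (dashed line: -0.5).

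The females did not form 1 even group. Female fetal livers 13, 15, 23 and 24 had 0 of the 10 called members above every male, whereas each of the other 8 female livers had between 7 and 10. For Hist1h3f these 4 livers had 95.1, 120, 80.4 and 78.3 CPM, within the male range, and the others 177 to 241 CPM, above it. Hist1h3c had 169, 158, 140 and 145 CPM in the 4 livers and 253 to 378 CPM in the other 8, with all 12 males at or below 227 CPM. Summed H3 reads behaved alike, at 938, 965, 891 and 909 CPM in the 4 and 1424 to 2039 CPM in the others, with males at 739 to 1350 CPM. Linker genes showed it less: summed H1 was 3661, 3214, 3825 and 3950 CPM in the 4 livers and 3344 to 4738 CPM in the others. H2afx, an H2A variant gene whose mRNA also occurs in a stem-loop form and which was looked at after its values were seen, had 165, 187, 148 and 140 CPM in the 4 livers, 294 to 439 CPM in the others and 123 to 285 CPM in males. No label used here marks these 4 livers, and because the division was seen in the values it was not tested.

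The sexes also differed in how the reads fell. The share of counted reads that lay outside annotated genes was 39.9% to 49.0% in the males, well apart from the 34.1% to 38.1% of the females. The share of alignments left out as not unique was 23.2% to 26.1% in males and 26.4% to 28.5% in females, again with no overlap. With the share outside genes as a covariate, 0 of the 57 members and 9 of 12930 genes were called, instead of 10 and 600, the median of the members was -0.02, and 2 members had an unadjusted p under 0.05 in edgeR. Sex and this share cannot be told apart in these libraries. Among males, the liver with the highest share outside genes (49.0%) had the lowest histone level (8123 CPM), and the one with the lowest share (39.9%) had 11558 CPM, above the male median of 10689 CPM. Male livers between these shares were mixed, with 9518 CPM at 40.4%, 13757 CPM at 41.1% and 11443 CPM at 44.2%. Among females, the liver with the highest share (38.1%) had the lowest level too (10227 CPM), while the one with the lowest share (34.1%) had 11055 CPM, below the female median of 12562 CPM. GC content differed too, with a median of 61.8% for the members tested and 50.1% for all genes. Across 11737 genes Spearman's rho between GC content and log2 (male/female) was -0.22, and across the 57 members it was -0.27. For the share of a member's windows that recurred in another member, rho with log2 (male/female) was -0.21 and Pearson's r -0.24 over the 57 members. With a GC offset fitted for each library, 6 members were called (Hist2h3b, Hist1h3h, Hist1h3c, Hist1h3f, Hist1h3a and Hist1h3e) with a median of -0.26 over the members. In that fit 539 of 11737 genes were called in either direction.

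**Figure D4:**
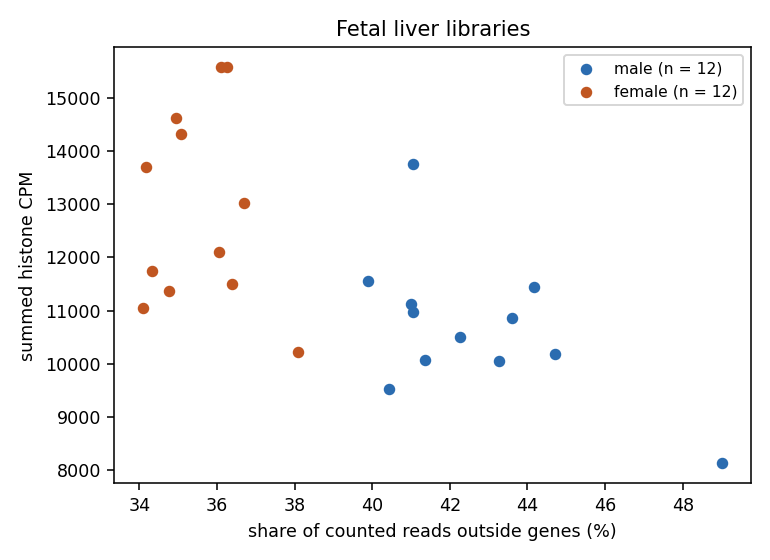
Summed histone CPM (y) against the share of counted reads outside annotated genes (x, percent) in 24 fetal livers, males in blue and females in orange. The sexes separate along x at 38.1% and 39.9% and overlap along y.

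Lists of genes of dividing cells had medians nearer to 0 than the histone genes between the sexes in fetal liver. Of 35 S phase genes 29 had a log2 (male/female) below 0 (median -0.11), and of 20 genes of mitosis 16 (median -0.11), with 0 called at this fold in either list by edgeR. At any fold 11 S phase genes and 4 genes of mitosis had an adjusted p under 0.1 in the direction of lower male levels, against the 19.5% of all genes given above. Replacement histones were below 0 in 10 of 10 tested, with a median of -0.13 and 7 at an adjusted p under 0.1. Small nucleolar RNA genes, which also lack poly(A) tails, had a median of -0.26 over 49 tested, with 10 called lower in males and 23 at an adjusted p under 0.1 at any fold. Of the other small noncoding RNAs 4 of 4 had such a p (median -0.31). Red cell genes were below 0 in 8 of 8 (median -0.12), with 1 at an adjusted p under 0.1. Leukocyte and endothelial genes leaned the other way, with medians of 0.12 and 0.11 and 0 called at the fold threshold. At any fold 3 of 7 and 2 of 5 had an adjusted p under 0.1 as higher in males, against 2287 of 12930 genes. Endothelial genes summed to 662 CPM in males (SD 40.1, n = 12) and 580 CPM in females (SD 39.7, n = 12). The part of these lists in the histone difference was not tested.

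In adult liver, 20 members passed the filter on low counts and 4 were called lower in males, against 6.49% of all genes. All 4 were at a few CPM. Hist4h4 had 1.12 to 5.24 CPM in males, median 3.10, and 3.83 to 6.42 CPM in females, median 5.81 (log2 -0.90 ± 0.16, edgeR, adjusted p = 6.2e-05). Hist1h2bb had medians of 2.60 CPM in males and 5.03 CPM in females (-0.95 ± 0.21, adjusted p = 0.00088), Hist2h2be of 3.03 and 4.47 CPM (-0.78 ± 0.20, adjusted p = 0.0046) and Hist1h4f of 2.57 and 5.68 CPM (-0.76 ± 0.26, adjusted p = 0.033). For each the ranges of males and females overlapped. The most abundant adult member, Hist1h2bc, went the other way: 104 to 162 CPM in males, median 132, and 93.3 to 131 CPM in females, median 112 (log2 0.21 ± 0.07, adjusted p = 0.030), a difference under the fold threshold. DESeq2 called 8 of 53 members tested, and edgeR without the filter on low counts 8 of 62, all as lower. In either direction these 2 fits called 1434 of 13916 and 1518 of 17265 genes. Among the other lists, 2 of 2 genes of mitosis tested were lower in adult males (median -0.90), and leukocyte genes were called lower in 3 of 4. Of 2 red cell genes tested 1 was higher in males, Alas2, the heme synthesis enzyme of red cells, at 171 CPM in males and 24.3 CPM in females (log2 2.79 ± 0.11). The part of these lists in the histone differences was not tested. The share of alignments left out as not unique was 42.2% to 61.1% in adult males and 32.7% to 43.2% in adult females. Its part in these differences was not tested either.

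The male against female difference itself differed between the livers for 14 of 57 members (edgeR interaction, adjusted p under 0.1), a smaller share than the 33.6% of all genes. The share of reads outside genes, which did not overlap between the sexes in fetal liver, was not a covariate in this fit. For 8 members the log2 (male/female) was higher in the adult than in the fetus, Hist1h2bc among them (0.21 in adult and -0.28 in fetal liver, difference 0.53 ± 0.10, adjusted p = 7.6e-05). It was lower in the adult for 6 members, including Hist4h4 (-0.90 and -0.34) and Hist1h2bb (-0.95 and -0.23).

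Among the ES cell lines, with 2 lines per sex, 59 members were tested, 2 were called lower in males (against 6.08% of all genes) and 1 higher (against 3.42%). The 2 lower ones, Hist1h2aa and Hist1h2ba, encode the testis H2A and H2B and lie head to head on chromosome 13. Hist1h2aa had 2.89 and 3.11 CPM in the male lines and 8.00 and 7.30 CPM in the female lines (log2 -1.38 ± 0.24, adjusted p = 0.038). Hist1h2ba had 1.73 and 2.14 CPM in the male and 7.70 and 6.09 CPM in the female lines (log2 -1.86 ± 0.30, adjusted p = 0.032). Both genes were higher in each female line than in each male line. With 2 lines per sex such a separation can easily arise by chance, so it adds nothing to the test. Hist1h2aa and Hist1h2ba were at or near 0 at the other stages. Their promoter windows overlap between 23934187 and 23934406. The window of Hist1h2ba (GRCm38.p6, chr13:23934107-23934406, minus strand) is shown because it holds this overlap; it stops short of the annotated start of Hist1h2aa. Capitals mark the 3 motifs searched above, on either strand.
Hist1h2ba: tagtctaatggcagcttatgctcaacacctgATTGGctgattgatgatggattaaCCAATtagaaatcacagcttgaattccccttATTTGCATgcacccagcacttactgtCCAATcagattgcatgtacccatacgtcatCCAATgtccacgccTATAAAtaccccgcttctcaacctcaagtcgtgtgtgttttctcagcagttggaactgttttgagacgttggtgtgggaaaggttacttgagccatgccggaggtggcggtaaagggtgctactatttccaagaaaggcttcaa
The third called member was the H4 gene Hist1h4i, with 41.1 and 38.3 CPM in the male and 24.8 and 22.01 CPM in the female lines (log2 0.73 ± 0.13, edgeR, adjusted p = 0.038). Without either male line all 3 stayed called. Without either female line edgeR called 0 of 13120 and 0 of 13108 genes, so these fits say nothing about the 3 members. Their adjusted p-values were then 0.30 to 0.46, with 3 and 5 members at an unadjusted p under 0.05. The log2 values without a female line were -1.32 and -1.45 for Hist1h2aa, -1.69 and -2.02 for Hist1h2ba, and 0.81 and 0.64 for Hist1h4i.

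Compared with fetal liver, ES cells had less of most histone genes. Of 62 members tested, 47 were called lower in ES cells (against 40.9% of all genes) and 2 higher (against 35.5%), with a median log2 (ES/fetal) of -0.92 against -0.07 over all genes. Plain library totals gave 40 lower and 3 higher, TMM having shifted this contrast down by 0.19 log2 units. Hist2h2be, an H2B gene with a UTR of 2192 bases and no stem-loop in its annotated transcript, was lowest: 1.54, 0.88, 0.40 and 0.30 CPM in the 4 lines against 24.2 to 42.7 CPM in fetal livers (log2 -5.48 ± 0.22, adjusted p = 8.6e-21). The pseudogene row Hist3h2bb-ps followed at -3.19 ± 0.21 and the linker gene Hist1h1e at -2.27 ± 0.11, which had 123 to 176 CPM in ES cells and 497 to 755 CPM in fetal livers. The other linker genes of dividing cells ranged from -1.50 ± 0.10 for Hist1h1c to -0.41 ± 0.11 for Hist1h1a, the latter under the fold threshold. The testis linker gene Hist1h1t was at 1.90 CPM in ES cells and 1.37 CPM in fetal liver (0.31 ± 0.23), which did not pass the test, although plain library totals called it higher. Hist3h2a and Hist4h4 were also lower, at -2.12 ± 0.18 and -0.86 ± 0.14, and so was Hist3h2ba, at 7.41 CPM in ES cells and 26.8 CPM in fetal liver. The 2 higher members were the testis pair: Hist1h2aa was at 0 reads in all 24 fetal livers, which puts the ES cells at least 288-fold higher (3 reads over the fetal group), and Hist1h2ba had 3 reads in all fetal livers together (log2 6.77 ± 0.33, adjusted p = 1.1e-18).

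Hist2h2bb was the first member per kilobase at both stages (1085 CPM per kb in ES cells), and Hist1h4d, Hist1h1c and Hist1h1d were among the first 5 in each. Of 35 S phase genes 22 were higher in ES cells and 4 lower (median log2 0.70), while the genes of mitosis had a median of 0.12 with 7 of 20 higher and 3 lower. Of the 21 histone mRNA factors 12 were higher and 2 lower. Zfp473, the U7-associated zinc finger protein, was at 54.2 CPM in ES cells and 4.01 CPM in fetal liver (log2 3.56 ± 0.10), Casp8ap2 at 238 and 106 CPM (0.97 ± 0.06), and Lsm10 rose by 0.54 ± 0.11. Slbp was one of the lower ones, at 145 and 202 CPM (-0.66 ± 0.10), a call that plain library totals ended (-0.47). Npat was at 0.45 ± 0.07, under the fold threshold, and Lsm11 at -0.02 ± 0.09.

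**Figure D5:**
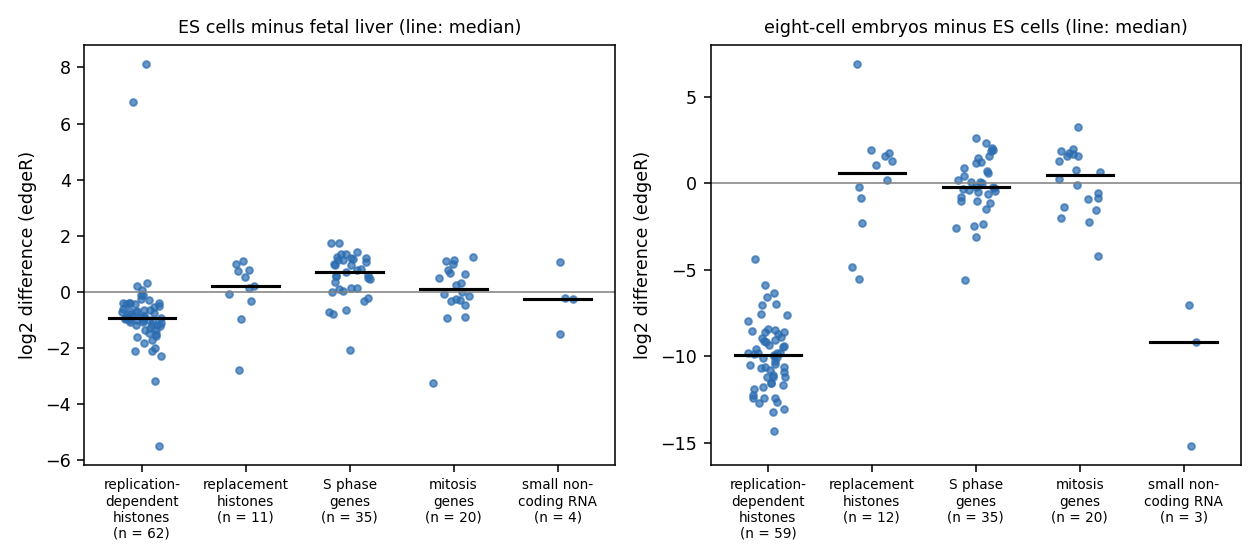
Log2 differences (edgeR) of single genes in 5 lists, ES cells minus fetal liver on the left and eight-cell embryos minus ES cells on the right, 1 point per gene, with a line at each median. The histone medians are -0.92 and -9.93, whereas the S phase and mitosis medians lie between -0.21 and 0.70 in both panels.

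In the embryo libraries the histone mRNAs were almost absent. All 59 members tested were lower than in ES cells, against 38.1% of all genes, with a median log2 (embryo/ES) of -9.93, or -9.82 with the 21 tested members at 0 reads set to the limit that 3 reads over the embryos allow. Reads were seen for 39 of the 68 members in any of the 12 embryos and for 2 to 14 members in a single one, and 0 members averaged 10 CPM. Hist2h2bb, first in ES cells at 396 to 446 CPM, had 0 reads in the 12 embryos and was at least 10089-fold lower. Hist1h4f and Hist1h4h, at 192 and 172 CPM in ES cells, also had 0 reads, at least 4690-fold and 4209-fold lower. The linker genes Hist1h1a, Hist1h1b, Hist1h1d and Hist1h1e had 10 to 23 reads each over all embryos. Hist1h1t, Hist1h2aa, Hist1h2ba and Hist3h2ba had 0 reads and were at least 46.3-fold, 130-fold, 108-fold and 181-fold lower. Because Picard had removed duplicate reads at every stage, levels of short and abundant transcripts in ES cells and livers may be too low, and the size of that loss was not tested.

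The mRNAs of other genes of dividing cells were present in embryos. The 35 S phase genes summed to 6387 CPM in embryos and 8462 CPM in ES cells, and the 20 genes of mitosis to 7194 and 6405 CPM. Replacement histones went both ways, with 6 of 12 tested called higher and 4 lower. Over all 13511 genes tested, 3501 were called higher and 5149 lower. The replacement histones summed to 4625 CPM in embryos against 2520 CPM in ES cells. Among the higher ones H3f3a had 1431 and 470 CPM (log2 1.95 ± 0.18), H3f3b 1243 and 536 CPM (1.57 ± 0.20) and H2afz 1334 and 819 CPM (1.07 ± 0.17). The lower ones were H2afx at 91.8 and 213 CPM (-0.86 ± 0.26), H2afy (-2.31 ± 0.31), H1fx (-4.83 ± 1.04) and H2afy2 (-5.55 ± 1.58). Slbp was at 268 CPM in embryos and 145 CPM in ES cells (1.23 ± 0.21, edgeR, adjusted p = 0.00012). Casp8ap2 was lower (-1.14 ± 0.28), as was Zfp473 (-3.36 ± 1.23), while Npat, Lsm10 and Lsm11 did not pass the test. Small noncoding RNAs that lack poly(A) tails were lower in 3 of 3 tested. The sum of 7 such genes was 6.25 CPM in embryos and 1816 CPM in ES cells, and Rmrp, the RNA of RNase MRP, had 0 reads in embryos against 750 CPM. Small nucleolar RNA genes were lower in 57 of 76 tested, with a median of -3.51; many of them lie in introns of other genes. Protocol and stage cannot be told apart in these differences.

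The few histone reads of the embryos were spread unevenly over the genes, and those of some genes came from few libraries. Hist1h4i averaged 1.93 CPM and had reads in 8 of 12 embryos, with 0 to 2.06 CPM in males and 0 to 6.23 CPM in females. Hist4h4, with an annotated 3′ UTR of 2515 bases, averaged 1.22 CPM and had reads in 10 embryos. Among the 59 members tested, Hist1h4i and Hist4h4 were also nearest to their ES cell level, at log2 differences of -4.40 ± 1.14 and -5.87 ± 0.65. Hist2h2be did not pass the filter on low counts. It averaged 0.27 CPM in embryos and 0.78 CPM in ES cells, a smaller difference, and all its 24 embryo reads came from 1 female embryo (3.21 CPM). Hist1h1c (0.88 CPM), Hist1h2bc (0.70 CPM) and Hist3h2a (0.39 CPM) had reads in 3, 2 and 3 embryos. Hist1h4i, Hist4h4, Hist1h1c, Hist1h2bc and Hist3h2a led the embryos in level, and the highest value of the 5 in any embryo was 7.99 CPM, for Hist1h2bc. Oocyte genes summed to 152 CPM in embryos and 16.1 CPM in ES cells.

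Between male and female embryos 0 members passed the filter on low counts, so none was tested. Without the filter edgeR tested 39 members and called 0 of them, with 10 at an unadjusted p under 0.05, 5 higher and 5 lower. DESeq2 tested 25, of which 0 had an unadjusted p under 0.05. The difference between the summed 6.05 and 10.9 CPM was smaller than the range within each sex, 2.59 to 7.94 CPM in males and 3.45 to 18.02 CPM in females. The summed level was not tested, and it rests on 20 to 97 histone reads per library.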

How the data were processed

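RNA-seq read counts of 64 libraries were analysed, grouped by the stage and gender labels. Per the labels and the study's methods, the authors deposited raw counts per gene: reads aligned to mm10 with TopHat 2.0.4 and Bowtie2 2.1.0, SAMtools 0.1.18, duplicates removed with Picard, and reads assigned by HTSeq, which leaves out reads of several places. Read length and the strand setting of counting are not given in the sources used here. Members were taken by symbol, and all 68 were found in GENCODE M21 and RefSeq (GRCm38.p6), which gave positions, lengths, GC content and sequences.

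CPM is a count scaled by the library's total of reads on genes, and CPM per kb divides it by the length of the annotated transcript. Each contrast was fitted on all genes with edgeR 4.0.16 in R 4.3.3 (TMM, filterByExpr, robust quasi-likelihood fit, two-sided F test), with sex as covariate between stages. A gene was called at a Benjamini-Hochberg adjusted p under 0.1 and an absolute log2 above 0.5, the thresholds of the study, which used DESeq2. The interaction needed the adjusted p alone. A group at 0 reads was bounded by 3 reads over the group. These limits cover counting error only, since no molecular identifiers were used. Each SE is the size of the log2 change divided by the square root of the fit's F statistic. It reflects the spread between samples but is approximate. It can be too small where a group holds very few reads, as for Hist1h2ba in fetal liver and Hist1h2an and Hist1h2bp in adult liver. Replicates are single embryos, lines or livers by their labels. Where several come from 1 litter, p-values measure the spread between these samples. No 2 libraries of a group held the same counts. Scripts were tested on simulated counts before use. Summaries used Python 3.11.15, pandas 2.3.3 and numpy 2.4.6.

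Replicate numbers did not pair samples: correlations of same-numbered samples ranged from -0.10 to 0.07 over 24 pairs of livers, with none above 0.1 at any pair of stages. Alternatives were DESeq2 1.42.0, its size factors, no filter, plain library totals, covariates for reads outside genes and GC content, other fold thresholds, a replicate block and leaving out libraries. The members and gene lists were chosen with earlier results of these data known. Genes named in the text were members called between sexes, the 5 highest per kilobase at each stage, the 3 largest changes each way between stages, the linker, testis and outlying members, and 6 histone mRNA factors.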

Additional observations from a re-analysis of the deposited data

Results flagged for a closer look

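In 5 cases 1 embryo stood apart from the other 5 of its sex by Dixon's test, among 12 groups of embryos examined. The test assumes normally distributed values, which these sparse counts are not, so no chance rate can be given. Where the other 5 embryos were at 0, any reads in 1 embryo give the highest possible ratio. Hist4h4 was at 3.38 CPM (18 reads) in male embryo 1 and at 0 to 1.19 CPM in the other males. Hist1h1c was at 4.05 CPM (27 reads) in male embryo 6 and at 0 in the other males, and at 4.81 CPM (27 reads) in female embryo 12 against 0 to 1.74 CPM in the other females. Hist3h2a was at 0.972 CPM (6 reads) in male embryo 2 and at 0 in the other males. Hist1h2bc was at 7.99 CPM (43 reads) in female embryo 10 and at 0 to 0.362 CPM in the other females.

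The log2 (male/female) differed between adult and fetal liver for 14 of 57 members by the interaction test of edgeR, a smaller share than the 33.6% of all genes. The fit held no covariate for the share of reads outside genes, which did not overlap between the sexes in fetal liver. The difference, adult minus fetal, was positive for Hist1h2ab at 1.32 (adjusted p = 0.043), Hist1h3a at 1.08 (0.038), Hist1h3e at 0.93 (0.023), Hist1h3f at 0.83 (0.097), Hist2h2ac at 0.58 (0.061), Hist1h2bc at 0.53 (7.6e-05), Hist1h4h at 0.47 (0.011) and Hist1h1c at 0.43 (0.049). It was negative for Hist1h4k at -1.38 (adjusted p = 0.00043), Hist1h2bn at -1.26 (0.010), Hist1h4j at -1.05 (0.045), Hist1h2bb at -0.68 (0.017), Hist2h2be at -0.57 (0.037) and Hist4h4 at -0.52 (0.065). Apart from Hist1h2bc, Hist1h1c and Hist1h4h, these members averaged at most 7.45 CPM in adult livers of either sex. Hist1h1c was at an adjusted p of 0.12 under the replicate block, and Hist1h3f at 0.11 with DESeq2 size factors and at 0.13 without the filter on low counts.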

How the results depend on the processing

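In fetal liver the 10 members lower in males became 0 with the share of reads outside genes as a covariate, 6 with a GC offset per library, and 47 with no fold threshold, and ranged from 7 (without female liver 22) to 11 when single livers were left out. DESeq2, its size factors and no filter called the same 10. In adult liver DESeq2 and no filter called 8 lower, of 53 and 62 members tested, in place of 4 of 20, and no fold threshold 1 higher. Between ES lines DESeq2 called 2 higher in place of 1, and leaving out single lines gave 0 to 6 higher and 0 to 2 lower; without either female line edgeR called 0 genes of any kind, so those fits say nothing about the members. DESeq2 and no filter each called 1 member higher in adult than in fetal liver. An absolute log2 above 1 left 25 of the 47 members lower in ES cells than in fetal liver. Lsm11 in that contrast turned from -0.02 to 0.011 without the filter and to 0.17 with plain library totals, and ranged from -0.20 to 0.079 without single ES lines, never past the threshold. With TMM-scaled CPM the summed histone level was 5331 CPM in male and 5092 CPM in female ES cells, and 562 and 568 CPM in adult males and females. Without the members over 1 kb, 63 being left, it was 6346 CPM in female ES cells and 316 and 339 CPM in adult males and females. Of 600 further values for single genes, 561 kept direction and call, 26 lost the call, 8 gained it and 5 turned direction, all of Lsm11 as given above. With the replicate number as a block, 56 members were lower in adult than in fetal liver, 38 in ES cells than in fetal liver and 59 in embryos than in ES cells. Same-numbered samples share only a number, so this block is no pairing.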
